A study of Mus musculus with 20 samples.

Results

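The splicing factor genes described here are the genes of the mouse annotation whose symbols begin with Srsf, Srrm, Hnrnp, Snrp, Sf3a, Sf3b or Rbm (for Srsf, Srrm, Sf3 and Rbm followed by a digit), with pseudogenes marked -ps left out. This rule takes 98 of the 32285 genes listed in the deposited files: 40 Rbm, 20 Hnrnp, 12 Snrp, 11 Srsf, 9 Sf3 and 6 Srrm genes. It reads symbols alone, so 4 of the 98 are antisense transcripts (Rbm3os, Rbm46os, Srrm3os and Srrm4os), 42 overlap another annotated gene, and 7 of these overlap a gene of the same strand. A gene was tested in a nucleus class where its counts passed the filter on low values: 93 genes passed in at least 1 of 9 classes, 38 in all 9, and 5 in none.

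Splicing removes introns from pre-mRNA in the spliceosome, a machine built around small nuclear ribonucleoproteins. The Snrp genes encode protein components of these particles, and the Sf3a and Sf3b genes encode subunits of the U2 particle that reads the branch point. SR proteins (Srsf) and the related SR repeat matrix proteins (Srrm) mostly promote the use of exons, hnRNP proteins (Hnrnp) bind pre-mRNA and often act against them, and Rbm is a naming class for proteins with an RNA recognition motif that have many roles. Neurons carry an especially large repertoire of alternative exons, among them the microexons included by Srrm4. Many Srsf and Hnrnp transcripts also retain introns or carry exons that limit their own expression.

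Hippocampal nuclei of 20 male mice aged 4.5 to 5.5 months were profiled by single nuclei RNA-sequencing, with 1 library per mouse. The mice carried the APPSwe/PS1ΔE9 transgenes (APP/PS1, a familial Alzheimer's disease model whose transgenes are driven by the mouse prion protein promoter) or were wild-type (WT) littermates. By their labels, 6 mice were WT-Wake, 3 APP/PS1-Wake, 3 WT-Isofluran, 4 APP/PS1-Isofluran, 2 WT-Ketamine and 2 APP/PS1-Ketamine. The series' design text and the study's figure legend give other sizes for the wake and isoflurane groups, and which mice account for this is not known, so states and genotypes are given as labelled. By the methods, tissue was processed in batches of 4 mice that held each wake and isoflurane group, without saying which mice. The runs of mouse numbers 1 to 4 and 14 to 17 each hold 1 mouse of these 4 groups. Isoflurane was started at 5% and lowered to 1.5%, ketamine was given at 150 mg/kg with xylazine at 12 mg/kg, and anesthetized mice were killed after 3 h. The comparisons ask how the transcripts of splicing factors differed between awake and anesthetized mice, between the anesthetics, and between the genotypes, in each cell class.

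Libraries held 9243992 to 25394891 unique molecular identifiers (UMIs) and 4743 to 10877 nuclei. Ketamine libraries were shallower, with 9243992 to 18736161 UMIs, against 11432646 to 25394891 in wake and 17552792 to 22659054 under isoflurane. The part of depth in the ketamine differences was not tested. Mice 1 to 4 stood apart with 0.939% to 1.78% mitochondrial UMIs, against 0.0353% to 0.336% in the other 16, and 3251 nucleus barcodes occurred in more than 1 library. Prnp, whose promoter drives the transgenes, ranged from 42.2 to 196 CPM (UMIs of a gene per 1000000 UMIs) in the 11 mice labelled WT and from 63.6 to 433 in the 9 labelled APP/PS1, so the labelled genotypes overlapped. Nuclei were assigned by fixed marker genes to 10 classes (59.5% of 160777 nuclei), of which 9 were tested, and summed per mouse. The share assigned was 47.9% to 53.1% in the ketamine mice and 51.6% to 71.6% in the other mice. The summed UMIs per mouse ran from 502316 to 3086430 in CA1-like and from 26242 to 238547 in OPC-like nuclei, and microglia-like sums could be used in 17 mice. The lowest CA1-like sums were those of ketamine mice 27 (502316) and 28 (616723). Each class expressed its own markers above those of other classes, apart from OPC-like nuclei, where the interneuron list summed to 5236 to 7050 CPM in the wake mice against 3210 to 4045 for the OPC list. That interneuron sum came from Erbb4 (3340 CPM over the OPC-like nuclei) and Nxph1 (2361 CPM), while Gad2 stood at 2.51 CPM and Slc32a1 at 1.57.

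Across cell classes, Srrm4, Srrm3, Snrpn and Rbm24 were higher in neuronal nuclei, while most of the genes called were lower there, a split that depended on the gate on nuclei. In a fit with mouse as a block, 85 of the genes could be compared between neuronal classes (CA1-like, CA3-like, DG granule-like and interneuron-like) and glial classes (astrocyte-like, oligodendrocyte-like, OPC-like and microglia-like). Of these, 69 passed the test (81.2%), 19 higher and 50 lower in neuronal nuclei, and 82.9% of all 12694 genes tested passed it, 43.5% higher and 39.4% lower. The share called was thus close to that of all genes, and the median difference was -0.18 on the log2 scale against 0.03 over all genes. The split moved with the processing, to 30 higher and 26 lower with a stricter gate, to 26 and 36 without a filter on low counts, and to 17 and 59 with upper-quartile scaling. The shares of all genes in these fits are not given here, so the moves are not shown to be particular to these genes.

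Srrm4, the regulator of neuronal microexons, had a mean of 447 ± 85.3 CPM (SD, n = 20) in interneuron-like, 314 ± 47.3 in subicular or cortical excitatory-like, 222 ± 29.5 in DG granule-like and 148 ± 35.1 in CA1-like nuclei. In the glial classes its means lay between 6.53 ± 6.13 (OPC-like, n = 20) and 15.8 ± 8.83 (astrocyte-like, n = 20), and the neuronal minus glial difference was 4.52 ± 0.08 (SE, log2). Srrm4os, an antisense transcript that overlaps Srrm4, differed by 5.12. Srrm3, which shares the microexon role, differed by 3.54 and was also present in OPC-like nuclei at 71.1 ± 20.5 CPM (n = 20). Snrpn, a paternally expressed gene that encodes the neuronal form of an Sm core protein, was highest in CA1-like nuclei at 176 ± 21.9 CPM (n = 20) and lay at 29.3 to 60.5 CPM in the glial classes. Its difference was 1.71, and its locus overlaps Snurf on the same strand. Rbm24 (2.62), Srsf12 (1.78), Rbm20 (0.98), Hnrnpll (0.73), Srsf11 (0.43) and Srrm2 (0.32) were higher in neuronal nuclei as well. For Rbm20 this holds for the mean over classes and not for each neuronal class. In the wake mice its mean difference from astrocyte-like nuclei was -2.24 in CA1-like, -1.27 in CA3-like and -2.26 in DG granule-like nuclei (log2 of CPM + 1).

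Among the Hnrnp genes, which package and sort pre-mRNA, 16 of 20 were lower in neuronal nuclei and 2 higher, where 39.4% of all genes were lower and 43.5% higher. With the stricter gate 14 were lower and 4 higher, and the shares of all genes with that gate are not given here. Hnrnpa2b1 had its highest mean in astrocyte-like nuclei, 482 ± 170 CPM (n = 20), against 182 ± 51.2 in CA3-like nuclei, and differed by -0.96. Hnrnpa0 (-1.06), Hnrnpa3 (-0.99), Hnrnpdl (-0.46) and Hnrnpk (-0.46) were lower too, whereas Hnrnpu, a nuclear scaffold protein, was higher by 0.17. The SR genes were divided: Srsf3 (-1.05), Srsf6 (-1.01) and Srsf5 (-0.68) were lower in neuronal nuclei, and Srsf10 (0.14) was higher with Srsf11 and Srsf12. Of the Snrp genes 8 of 12 were lower and Snrpn alone was higher, beside the same shares of all genes. With the stricter gate 4 Snrp genes were lower and 3 higher. Rbm47 was close to a marker of 1 class, with 293 ± 80.8 CPM (n = 17) in microglia-like nuclei and at most 5.88 elsewhere. Several small negative differences did not survive the stricter gate, under which Srsf7 (-0.17), Rbm25 (-0.15), Rbm39 (-0.19), Rbm3 (-0.14), Snrpb (-0.29) and Sf3b1 (-0.25) no longer passed the test, and all of these but Sf3b1 changed sign. The positive differences of Hnrnpu and Srrm2 grew there to 0.42 and 0.50.

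**Figure D1:**
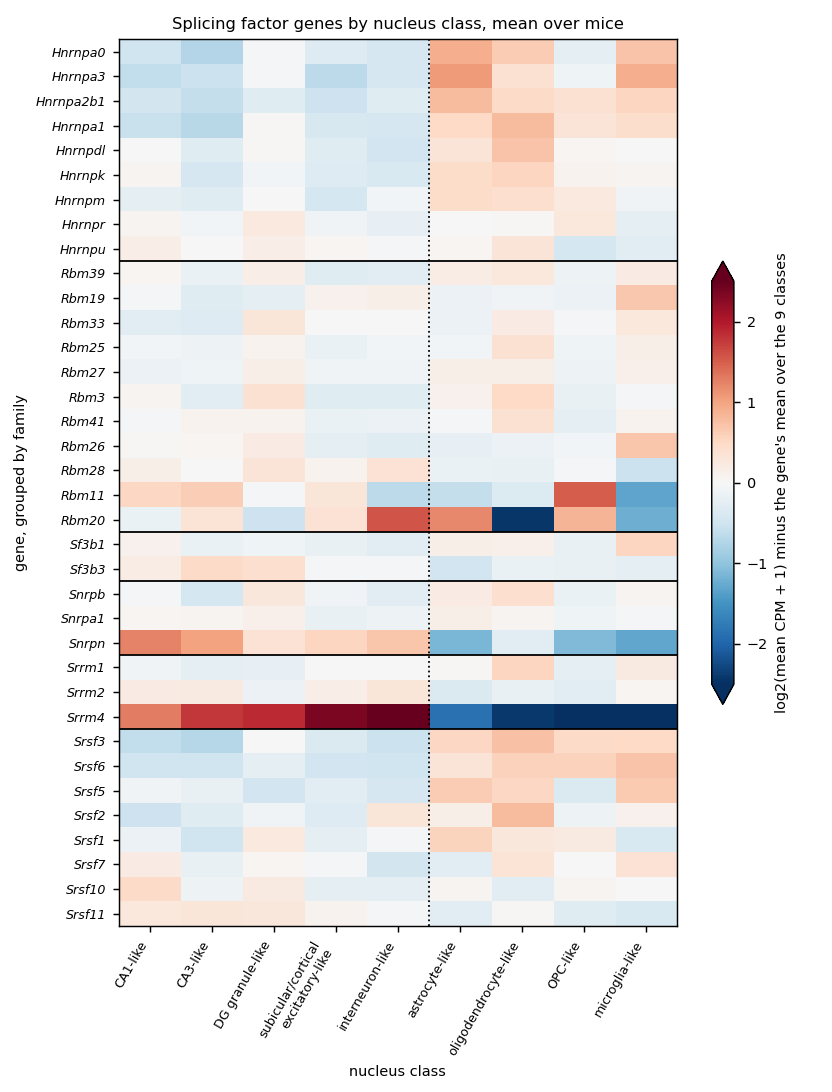
Heat map of the splicing factor genes named for levels or state comparisons (rows, grouped by family) in 9 nucleus classes (columns), as log2(mean CPM + 1) over mice minus the gene's own mean over the classes. The dotted line divides neuronal from glial classes: Srrm4 and Snrpn lie above their own mean on the neuronal side only, and Hnrnpa2b1 lies above its own mean in the 4 glial classes.

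Under isoflurane, Rbm20 rose in excitatory classes and few other splicing factor genes were called. In 663 tests (genes by classes) 13 passed at an adjusted p under 0.05, 1.96% of them, against 3.72% of all 91471 tests of all genes. The 13 calls fell on 9 genes, with 7 calls higher and 6 lower, where 2.19% and 1.53% of all tests were higher and lower. By class, 1 of 87 genes was called in CA1-like nuclei (4.9% of all genes tested there), 2 of 87 in CA3-like (1.86%), 1 of 92 in DG granule-like (2.41%), 2 of 71 in subicular or cortical excitatory-like (3.74%), 0 of 75 in interneuron-like (2.09%), 5 of 86 in astrocyte-like (7.43%), 2 of 77 in oligodendrocyte-like (6.29%), 0 of 49 in OPC-like (0.768%) and 0 of 39 in microglia-like nuclei (0.44%). Unadjusted p-values were under 0.05 in 78 tests, 11.8%, where 9.84% to 20.5% of all genes had one by class. DESeq2 called 16, and its share of all tests is not given here. The count moved with single mice: leaving out mouse 4 gave 5 calls, mouse 2 or 10 gave 7, and mouse 18 gave 8. Shares of all tests in those fits are not given here either. With runs of mouse numbers as a block 25 tests passed, 12 higher and 13 lower. Of the 13 calls without the block, 10 were among them. The share of all tests that passed in that fit is not given here. The median difference of the genes per class lay between -0.10 and 0.08 on the log2 scale.

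Rbm20 rose in every excitatory class. It encodes an RNA-binding protein best known as the splicing regulator of titin in heart muscle. The gene lies on chromosome 19 (GRCm38, 53677306 to 53867080, plus strand) and overlaps Gm16299 on the other strand. In CA1-like nuclei its level was 0.944 CPM in the lowest, 3.28 in the median and 6.33 in the highest of the 9 wake mice. In the 7 isoflurane mice the lowest, median and highest values were 6.09, 12.0 and 14.1 CPM, and the 4 ketamine mice had 14.8 and 10.6 (APP/PS1) and 18.6 and 9.58 (WT). All but the highest wake mouse lay below the lowest isoflurane mouse, and all ketamine mice lay above every wake mouse. These levels are low: they rest on 62, 177 and 48 UMIs in the wake, isoflurane and ketamine mice.

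The isoflurane minus wake difference of Rbm20 was 1.76 ± 0.27 (SE, log2), or 3.38-fold, in CA1-like nuclei (adjusted p = 0.000959, edgeR). The call held in each of the 20 fits without 1 mouse (1.59 to 1.91, highest adjusted p 0.00451), with runs of mouse numbers as a block (1.73, adjusted p = 0.000743) and without mice 1 to 4 (1.40, adjusted p = 0.0207). In subicular or cortical excitatory-like nuclei the difference was 2.39 ± 0.44 (adjusted p = 0.00373), from a wake median of 4.63 CPM to an isoflurane median of 20.9, and 1 wake mouse (mouse 19, 19.3 CPM) lay among the isoflurane mice. This class could not be tested with the stricter gate, which 226 of its 3018 nuclei passed, and 87.4% of its nuclei had only the minimum of 2 markers. DG granule-like nuclei gave 1.32 ± 0.26 (adjusted p = 0.0148), with medians of 3.28 and 9.38 CPM. CA3-like nuclei gave 1.14 ± 0.24 (adjusted p = 0.0194), with medians of 6.62 and 15.7 CPM. Without mice 1 to 4 these 3 classes kept the direction with adjusted p-values of 0.0825, 0.16 and 0.257. Leaving out mouse 2 ended the call in DG granule-like nuclei (highest adjusted p 0.0541) and leaving out mouse 2, 3 or 10 ended it in CA3-like nuclei (highest 0.0634). The DG granule-like call was also lost with the stricter gate (adjusted p = 0.0722). Rbm20 also passed in CA1-like nuclei within WT mice alone (1.55 ± 0.33) and within APP/PS1 mice alone (1.97 ± 0.41), and the difference between these was 0.42 ± 0.53 (adjusted p = 0.96).

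Interneuron-like and astrocyte-like nuclei, where Rbm20 was most abundant, did not pass this test. In interneuron-like nuclei the wake median was 26.1 CPM and the isoflurane median 34.6 (0.52 ± 0.25, adjusted p = 0.378). Astrocyte-like nuclei had 16.1 to 32.1 CPM in wake, 20.7 to 36.1 under isoflurane and 21.0 to 36.0 CPM under ketamine (0.32 ± 0.17 for isoflurane minus wake, adjusted p = 0.316). Astrocyte markers were detected in the CA1-like sums, all 8 of them, at 66.4 to 168 CPM in wake (median 74.3), 79.8 to 130 under isoflurane (median 94.4) and 63.7 to 79.5 under ketamine. In astrocyte-like nuclei the same markers summed to 6896 CPM and more. The interneuron markers in the CA1-like sums had medians of 22.5 CPM in wake, 21.4 under isoflurane and 19.3 with ketamine. The part of such RNA in the Rbm20 differences was not tested. The excitatory minus astrocyte difference of Rbm20 within each mouse, on the log2(CPM + 1) scale, had a mean over the 7 isoflurane mice that lay above that of the 9 wake mice by 1.08 in CA1-like, 1.64 in subicular or cortical excitatory-like, 0.78 in DG granule-like and 0.74 in CA3-like nuclei. These values are a description with no test, since the gene and the classes were taken for their calls. 

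**Figure D2:**
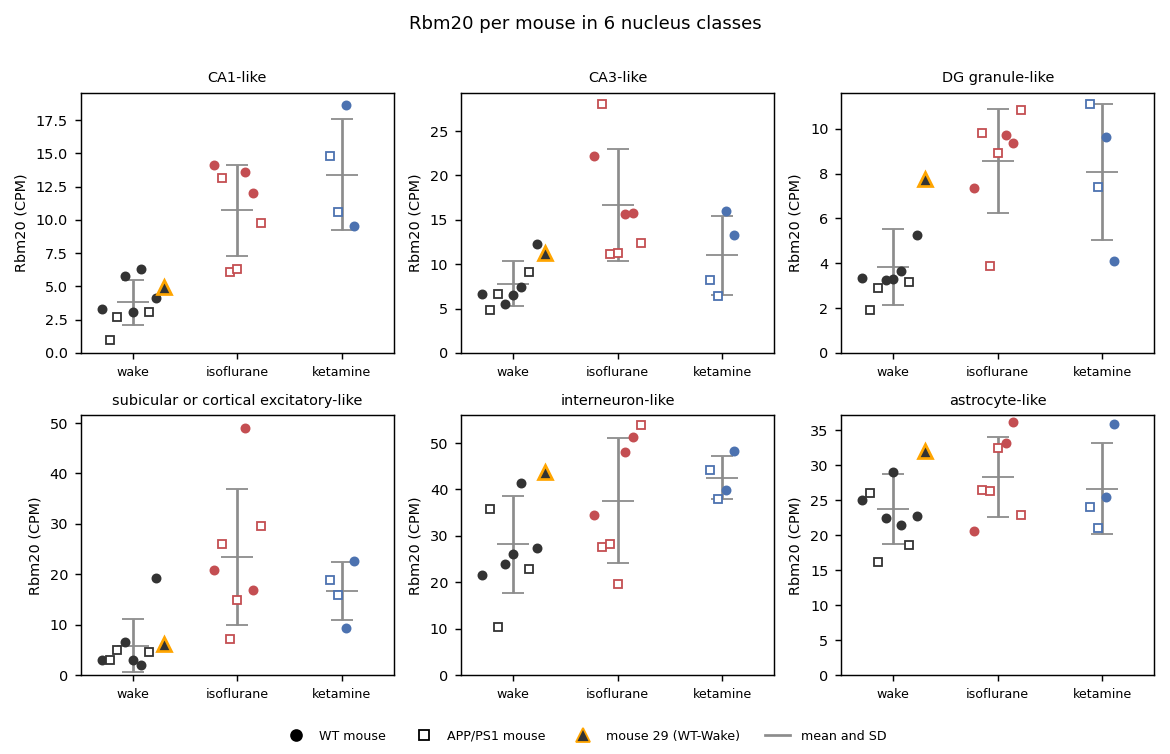
Rbm20 in CPM (vertical axis, from 0) per mouse in 6 nucleus classes, by state on the horizontal axis, with filled circles for WT, open squares for APP/PS1, a triangle for mouse 29, and grey bars for the mean and SD. In CA1-like nuclei the wake mice end at 6.33 CPM and the ketamine mice begin at 9.58, whereas the 3 states overlap in astrocyte-like nuclei.

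Rbm11, a tissue-restricted splicing regulator gene, was the other gene that rose in excitatory classes under isoflurane. In CA3-like nuclei 6 of 7 isoflurane mice lay above every wake mouse, with medians of 9.73 CPM in wake and 23.1 under isoflurane (1.01 ± 0.24, adjusted p = 0.0298). In subicular or cortical excitatory-like nuclei the medians were 9.67 and 22.4 CPM (1.15 ± 0.30, adjusted p = 0.0308). Each of these calls was lost without any of 8 single mice and without mice 1 to 4 (adjusted p = 0.256 and 0.292). With the block the CA3-like call held (1.03, adjusted p = 0.00658). The subicular or cortical excitatory-like call missed the threshold there (1.04, adjusted p = 0.0552).

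In astrocyte-like nuclei, 4 genes fell and 1 rose under isoflurane. Srsf7, an SR protein that also promotes mRNA export, was at 112, 281 and 424 CPM in the lowest, median and highest wake mouse and at 78.9, 118 and 252 CPM in the isoflurane mice. The groups overlapped, but 4 of the 7 isoflurane mice had 118 CPM or less and 1 of the 9 wake mice did. The difference was -1.03 ± 0.24 (adjusted p = 0.0113). It held without any 1 mouse (-1.20 to -0.83, highest adjusted p 0.042) and with the block (-1.05), and had an adjusted p of 0.0618 without mice 1 to 4. Within APP/PS1 mice it was -1.47 ± 0.35 (adjusted p = 0.0376) and within WT mice -0.58 ± 0.33 (adjusted p = 0.426). The difference between these was -0.89 ± 0.47 (adjusted p = 0.968), and over the 9 classes it lay between -1.04 and -0.71 with no call. Srsf2 (-0.71 ± 0.20, medians 139 and 75.4 CPM), an SR protein that stays in the nucleus, Hnrnpa2b1 (-0.63 ± 0.18, medians 481 and 305 CPM) and Hnrnpdl (-0.48 ± 0.14, medians 171 and 122 CPM) also fell. Hnrnpa3 rose by 0.57 ± 0.15, from a median of 133 to 217 CPM, with 5 of 7 isoflurane mice above all wake mice. These 4 calls were lost on leaving out any of 5 (Srsf2), 6 (Hnrnpa2b1), 14 (Hnrnpdl) or 4 (Hnrnpa3) single mice (adjusted p up to 0.119), and only that of Hnrnpa3 remained without mice 1 to 4 (0.70, adjusted p = 0.0147). With the stricter gate the calls of Hnrnpa3 (adjusted p = 0.126), Srsf2 (0.0611) and Hnrnpdl (0.0956) were lost, while those of Srsf7 and Hnrnpa2b1 held. With the block Hnrnpa2b1 (adjusted p = 0.053) and Hnrnpdl (0.0531) missed the threshold.

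Marker lists of other classes differed as well under isoflurane in the astrocyte-like nuclei, in both directions. The 5 OPC markers summed to 56.2 to 113 CPM in wake (median 68.8) and 25.5 to 63.0 under isoflurane (median 38.8), and the 6 CA3 markers to 1326 to 1627 CPM (median 1576) and 977 to 1601 CPM (median 1206). The medians of the interneuron markers were 191 and 143 CPM, those of the DG granule markers 1110 and 984, and those of the subicular markers 102 and 81.4. The medians were higher under isoflurane for the vascular (113 and 150 CPM), microglia (130 and 147) and CA1 markers (85.0 and 98.4). The CA3 sum came mostly from Trps1, at 1135 CPM over the astrocyte-like nuclei and detected in 63.2% of them, while Cpne4 stood at 4.33 and Grik4 at 28.6 CPM. The DG granule sum came mostly from Glis3 (574 CPM) and Rfx3 (361), while Trpc6 stood at 2.31. None of these markers was at 0, and the OPC markers each stood at 4.92 (C1ql1) to 30.4 CPM (Vcan). Their part in the differences was not tested.

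In oligodendrocyte-like nuclei Rbm28, a nucleolar protein gene, fell by 0.59 on the log2 scale (medians 85.4 and 52.9 CPM) and Rbm27 fell by 0.66 (medians 91.3 and 55.7 CPM). In these sums the CA3 markers had medians of 376 CPM in wake and 252 under isoflurane, the DG granule markers 400.5 and 309.9, and the astrocyte markers 236 and 164. Over the oligodendrocyte-like nuclei, the CA3 sum came mostly from Trps1 (195 CPM) and Grik4 (77.9), while Cpne4 stood at 4.74. The DG granule sum came mostly from Prox1 (183 CPM) and Rfx3 (113), while Glis3 stood at 3.64 and Trpc6 at 2.79. The part of these markers in the differences was not tested. Rbm27 lost its call without any of 13 mice and Rbm28 without mouse 4 or 18 (adjusted p up to 0.0565). Both were lost with the stricter gate (adjusted p = 0.252 for Rbm27 and 0.0728 for Rbm28), and Rbm27 also without mice 1 to 4 (0.0991). Of the 13 isoflurane calls, 3 held in all 20 fits without 1 mouse (Rbm20 in CA1-like and in subicular or cortical excitatory-like nuclei, and Srsf7 in astrocyte-like nuclei) and 10 held with the block, and none changed sign. The Snrp, Sf3 and Srrm genes had no call under isoflurane averaged over the genotypes in the fit without the block. With it, Snrpa1 (CA1-like, 0.71, adjusted p = 0.0189), Snrpn (astrocyte-like, 0.80, adjusted p = 0.0357), Srrm3 (CA1-like, -0.31, adjusted p = 0.0318), Srrm4 (astrocyte-like, 0.77, adjusted p = 0.0248) and Srrm1 (microglia-like, 0.91, adjusted p = 0.0072) passed. The other genes called with the block alone were Srsf4 (CA1-like, -0.37), Srsf5 (interneuron-like, -0.65), Srsf6 (DG granule-like, -0.61), Hnrnph1 (DG granule-like, -0.48), Hnrnpc (CA3-like, -0.37, and DG granule-like, -0.27), Rbm7 (oligodendrocyte-like, -0.87), Rbm41 (subicular or cortical excitatory-like, -1.01) and Rbm26 (microglia-like, 0.88), and Rbm11 passed in CA1-like nuclei (0.72). Within WT mice alone, 3 of 663 tests passed (0.528% of all tests did): Rbm20 in CA1-like and in subicular or cortical excitatory-like nuclei, and Snrpn in the latter (1.07 ± 0.25, adjusted p = 0.0458). Within APP/PS1 mice 2 passed (0.364% of all tests), Rbm20 in CA1-like and Srsf7 in astrocyte-like nuclei.

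The other genes of splicing were described with a list of 77 genes of SR protein kinases, cofactors, neuronal splicing regulators and further spliceosome components. Under isoflurane 16 of its 615 tests passed, 2.6%, where 3.72% of all tests passed, and all 16 were lower (1.53% of all tests were). With the block 13 of these 16 passed. Clk2, a kinase that phosphorylates SR proteins, fell in CA1-like (by 0.71), subicular or cortical excitatory-like (by 0.74), astrocyte-like (by 0.66) and DG granule-like nuclei (by 0.46). The neuronal regulators Khdrbs2 (interneuron-like, -0.87) and Elavl2 (interneuron-like, -0.52), Celf2 (subicular or cortical excitatory-like, -0.51) and Khdrbs3 (the same class, -0.63) fell, as did the SR protein kinase Srpk2 (DG granule-like, -0.46).

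With ketamine, calls were more numerous than under isoflurane, as they were over all genes (5.29% of all tests against 3.72%). They went in both directions, and the share called was close to that of all genes. Of 663 tests 34 passed against wake (5.13%, where 5.29% of all tests did), 22 higher (2.74% of all tests were) and 12 lower (2.55%), on 16 genes. By class, 7 of 87 genes were called in CA1-like nuclei (6.8% of all genes there), 3 of 87 in CA3-like (4.61%), 9 of 92 in DG granule-like (11%), 1 of 71 in subicular or cortical excitatory-like (2.27%), 1 of 75 in interneuron-like (1.83%), 7 of 86 in astrocyte-like (7.04%), 6 of 77 in oligodendrocyte-like (3.41%), 0 of 49 in OPC-like (0.893%) and 0 of 39 in microglia-like nuclei (0.283%). DESeq2 called 40. Leaving out ketamine mouse 25, 26, 27 or 28 gave 4, 14, 3 or 10 calls, and leaving out wake mouse 2 or 13 gave 11 or 21. The shares of all tests in these fits are not given here. All 9 Hnrnp calls (168 tests) were higher, 7 of 11 Srsf calls (88 tests) were higher, and of 14 Rbm calls (223 tests) 6 were higher and 8 lower. A gene counts once per class: these calls fell on 6 Hnrnp, 5 Srsf and 5 Rbm genes in the same ketamine mice.

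The 4 ketamine mice carry the numbers 25 to 28, and 1 wake mouse, number 29, belongs to the same run of numbers. With runs of mouse numbers as a block, the ketamine difference rests on that mouse as its only comparison within the run, and 0 of the 34 calls passed (39 of all 91471 tests did). The sign was the same in 31 of 34. Mouse 29 lay within the range of the ketamine mice in 12 of the 34 and within that of the other 8 wake mice in 15, and it was nearer to the ketamine mean in 18 and nearer to the wake mean in 16. The ketamine mice did not overlap with the other 8 wake mice in 22 of the 34. These were called on the same mice, so this count is no separate evidence of a difference. The share without overlap over all genes is not given here. Ketamine and the run of mouse numbers therefore cannot be told apart for any of the 34 calls. The value of mouse 29 is given beside the main ones.

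Rbm3, a cold-inducible RNA-binding protein gene known for its role in synapse maintenance, was the gene that fell in most classes. It lies on chromosome X (GRCm38, 8138975 to 8145880, minus strand). In CA1-like nuclei the lowest, median and highest wake values were 28.1, 58.9 and 79.3 CPM, and the ketamine mice had 25.9 and 26.9 (APP/PS1) and 14.5 and 9.58 CPM (WT), all below every wake mouse. Mouse 29 had 29.8 CPM, and only 1 wake mouse lay lower. In DG granule-like nuclei, wake ran from 25.6 to 94.6 CPM (median 71.6) and the ketamine mice from 20.4 to 34.5 CPM. The lowest wake value there was that of mouse 29, and without it the groups would not overlap, since the next wake mouse stood at 49.0 CPM. Rbm3 passed in 6 of 8 classes: CA1-like (-1.69 ± 0.37, adjusted p = 0.0119), DG granule-like (-1.27 ± 0.31), subicular or cortical excitatory-like (-1.88 ± 0.46), interneuron-like (-1.94 ± 0.47), astrocyte-like (-1.66 ± 0.36, adjusted p = 0.0102) and oligodendrocyte-like nuclei (-1.62 ± 0.40). In CA3-like nuclei the difference was -1.37 (adjusted p = 0.0541). Each call was lost without at least 2 of the ketamine mice taken singly (adjusted p up to 0.203), and the block gave -0.90 in CA1-like, 0.17 in DG granule-like and -0.33 in astrocyte-like nuclei. Under isoflurane its differences, averaged over the genotypes, lay between -0.23 and 0.31 and none passed. Within WT mice they lay between -0.04 and 0.81, and within APP/PS1 mice between -0.72 and -0.19. The difference between the genotypes lay between -1.01 and -0.31 over the classes, and none of these passed either. Cirbp, the other cold-inducible RNA-binding protein gene and one of the 77, was called in CA3-like nuclei (-1.41 ± 0.345, adjusted p = 0.0259). There the wake mice had 8.88 to 19.0 CPM, the isoflurane mice 10.8 to 37.2, and the ketamine mice 5.48, 7.72, 2.00 and 6.66.

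Srsf10, an SR protein that represses splicing when it is dephosphorylated, as on heat shock, was the SR gene that rose most widely. In CA1-like nuclei the wake mice had 84.2, 101 and 121 CPM (lowest, median and highest), the isoflurane mice 65.2, 82.1 and 139, and the ketamine mice 226, 181, 145 and 172. The ketamine mice lay above all 16 others, and mouse 29, at 121 CPM, was the highest of the wake mice. The difference against wake was 0.82 ± 0.17 in CA1-like (adjusted p = 0.00865), 0.62 ± 0.17 in CA3-like, 0.71 ± 0.19 in DG granule-like, 0.79 ± 0.20 in astrocyte-like and 1.15 ± 0.20 in oligodendrocyte-like nuclei (adjusted p = 0.00495). In oligodendrocyte-like nuclei the ketamine mice had 113, 126, 186 and 143 CPM, and mouse 29, at 76.3, was within the 50.3 to 82.0 CPM of the wake mice. In the fits without 1 mouse, the CA1-like call was lost only without mouse 25 (adjusted p = 0.0626) and the oligodendrocyte-like call only without mouse 27 (adjusted p = 0.053). The CA1-like call was also lost with the stricter gate (0.90, adjusted p = 0.0832). The block gave 0.59 and 1.03 there, with adjusted p-values of 0.419 and 0.507.

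Hnrnpa1, a general repressor of exon use, rose in 3 classes. In DG granule-like nuclei the wake mice had 17.5, 23.6 and 53.8 CPM (lowest, median and highest), the isoflurane mice 19.1, 24.3 and 49.5, and the ketamine mice 80.6, 64.9, 70.4 and 66.0. No other mouse reached the ketamine values, and the highest wake value was again that of mouse 29. The difference was 1.24 ± 0.29 in DG granule-like (adjusted p = 0.0117), 1.36 ± 0.34 in astrocyte-like and 1.38 ± 0.35 in oligodendrocyte-like nuclei. In oligodendrocyte-like nuclei mouse 29, at 128 CPM, lay within the ketamine mice (115 to 173) and above the other 8 wake mice. With the block the differences were 0.14, 0.20 and 0.02. Hnrnpa2b1, an hnRNP protein that also guides RNA transport, was called against wake in DG granule-like nuclei (0.62 ± 0.12, adjusted p = 0.00419). There the wake mice had 155, 187 and 249 CPM and the ketamine mice 306, 268, 266 and 298, above every other mouse, with mouse 29 at 249. This call held without any 1 mouse (highest adjusted p 0.0338), as did that of Rbm20 in CA1-like nuclei (2.04 ± 0.34, adjusted p = 0.00199), and no other ketamine against wake call did. With the stricter gate Rbm20 in CA1-like nuclei had an adjusted p of 0.222 (2.05), and Hnrnpa2b1 in DG granule-like nuclei kept its call, while the block lowered the latter difference to 0.21 (adjusted p = 0.843). Mouse 29 had 4.96 CPM of Rbm20 in CA1-like nuclei, within the wake mice, and the blocked difference there was 1.87 (adjusted p = 0.38).

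**Figure D3:**
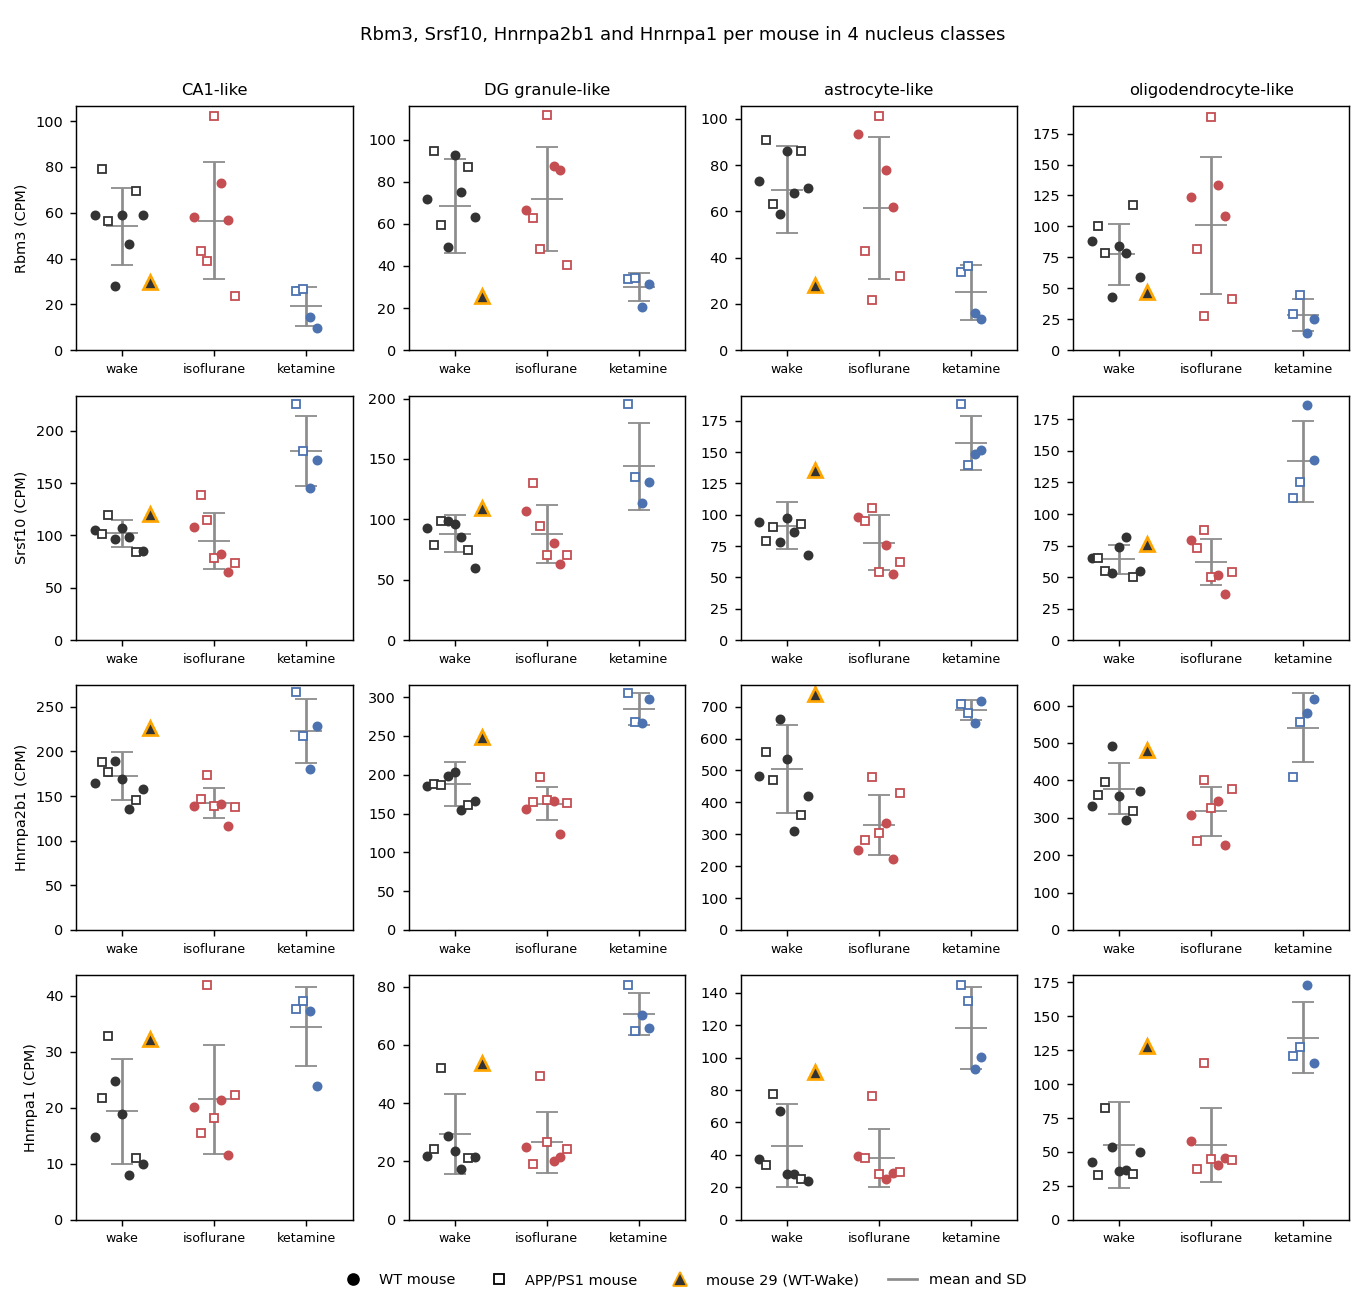
Rbm3, Srsf10, Hnrnpa2b1 and Hnrnpa1 (rows) in CPM per mouse (vertical axes from 0) in CA1-like, DG granule-like, astrocyte-like and oligodendrocyte-like nuclei (columns), by state, with grey bars for the mean and SD. In DG granule-like nuclei mouse 29 (triangle, WT-Wake) is the lowest wake mouse for Rbm3, at 25.6 CPM, and the highest for Hnrnpa1, at 53.8 CPM.

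Further genes rose with ketamine in 1 to 3 classes each. Markers of other classes differed as well, and their part was not tested. In astrocyte-like nuclei the CA3 markers summed to 1326 to 1627 CPM in wake and 1115 to 1380 with ketamine, and the oligodendrocyte markers had medians of 194 and 106 CPM. In oligodendrocyte-like nuclei the medians were 376 and 283 CPM for the CA3 markers and 14.2 and 55.9 for the vascular markers. In CA3-like nuclei they were 121 and 67.9 for the CA1 markers. In DG granule-like nuclei they were 90.7 and 44.5 for the oligodendrocyte and 10.3 and 27.5 for the vascular markers. The further genes that rose in astrocyte-like nuclei were Hnrnpk (0.68 ± 0.17, with ketamine mice at 170, 124, 125 and 135 CPM and mouse 29 at 80.2, near the wake median of 81.5), Hnrnpdl (0.54 ± 0.16), Hnrnpm (0.51 ± 0.15) and Srsf1 (0.42 ± 0.12). In oligodendrocyte-like nuclei Hnrnpm rose by 0.76 ± 0.20, with the ketamine mice at 202, 206, 211 and 208 CPM against 87.4 to 156 in wake, Hnrnpa3 by 0.65 ± 0.16 and Rbm33 by 0.83 ± 0.21. Rbm33 also rose in CA1-like (0.50) and DG granule-like nuclei (0.45), Srsf11 in CA3-like (0.42 ± 0.12), and Rbm11 (1.02 ± 0.28) and Rbm20 (1.24 ± 0.32) in DG granule-like nuclei. Genes that fell besides Rbm3 were Srsf2 in CA1-like (-1.16 ± 0.32) and DG granule-like (-0.85 ± 0.26) nuclei, Srsf5 in CA1-like (-0.59 ± 0.16) and CA3-like (-0.80 ± 0.20) nuclei, and Rbm41, a component of the minor spliceosome, in CA1-like (-1.09 ± 0.28) and DG granule-like (-0.87 ± 0.21) nuclei. For Srsf2 mouse 29 had 36.4 CPM in CA1-like nuclei, among the ketamine mice at 20.7 to 41.5, and the blocked difference was -0.04. For Rbm41 it had 25.6 CPM, above the ketamine mice at 11.1 to 19.2, and the blocked difference was -0.94 (adjusted p = 0.609).

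Of the 77 other splicing genes, 44 of 615 tests passed with ketamine against wake, 7.15%, where 5.29% of all tests passed. Of these, 23 were higher (2.74% of all tests were) and 21 lower (2.55%). With the block 0 of the 44 passed, and all 44 kept the sign. The helicase Snrnp200 of the U5 particle rose in astrocyte-like nuclei (1.01 ± 0.17, adjusted p = 0.00146). Srek1, an SR-related protein, rose in DG granule-like nuclei (0.48 ± 0.10), with the ketamine mice at 432, 380, 339 and 336 CPM above all others (196 to 309), and in CA1-like (0.62), CA3-like (0.54) and subicular or cortical excitatory-like nuclei (0.53). Taf15 (0.55 in DG granule-like nuclei), Ptbp2, a neuronal repressor of exon use (0.91 in subicular or cortical excitatory-like nuclei), Mbnl2 (0.48 in astrocyte-like nuclei) and Luc7l3 of the U1 particle (0.59 in DG granule-like nuclei) rose too. Tra2a, an SR-like activator, fell in astrocyte-like nuclei (-1.03 ± 0.22), from 274 to 424 CPM in wake to 190, 150, 137 and 199 with ketamine, and in 5 further classes. Clk2 fell in DG granule-like nuclei (-0.84 ± 0.15), where the wake mice had 42.6 to 71.5 CPM and the ketamine mice 29.1, 25.2, 30.7 and 39.6. Mouse 29 had 289 CPM of Srek1 and 51.1 of Clk2 in DG granule-like nuclei and 307 of Tra2a in astrocyte-like nuclei. With the block the difference was 0.63 for Snrnp200 in astrocyte-like, 0.39 for Srek1 in DG granule-like, 0.01 for Luc7l3 in DG granule-like and -0.81 for Tra2a in astrocyte-like nuclei. Elavl2 (astrocyte-like, -2.02), Snrnp48 of the minor spliceosome (DG granule-like, -0.66) and Prpf3 (CA1-like, -0.66) fell as well.

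Set against isoflurane in place of wake, ketamine gave 33 calls (4.98%, where 3.44% of all tests passed), 27 higher (1.67% of all tests were) and 6 lower (1.77%), on 14 genes. By class, 4 of 87 genes were called in CA1-like nuclei (3.49% of all genes there), 3 of 87 in CA3-like (2.01%), 7 of 92 in DG granule-like (3.64%), 0 of 71 in subicular or cortical excitatory-like (0.923%), 1 of 75 in interneuron-like (0.872%), 11 of 86 in astrocyte-like (9.68%), 7 of 77 in oligodendrocyte-like (4.35%), 0 of 49 in OPC-like (0.804%) and 0 of 39 in microglia-like nuclei (0.755%). The Hnrnp genes had 12 calls higher and 2 lower (168 tests, on 5 genes), and the Srsf genes 8 higher and 0 lower (88 tests, on 3 genes). The ketamine mice are the same as in the comparison with wake, so both comparisons share their values. With the block 0 of the 33 calls passed (5 of all tests did), and 30 of 33 kept the sign. The run of mice 25 to 29 holds no isoflurane mouse, so with the block ketamine is linked to isoflurane only through wake mouse 29. The estimates moved as well, that of Hnrnpa1 in astrocyte-like nuclei from 1.67 to 0.037 and that of Rbm3 in DG granule-like nuclei from -1.29 to 0.26. Mouse 29 had 91.3 CPM of Hnrnpa1 there (ketamine mice 92.9 to 144) and 25.6 CPM of Rbm3 (20.4 to 34.5). The part of the run in these values was not tested. Leaving out ketamine mouse 25, 26, 27 or 28 gave 8, 11, 6 or 9 calls, and leaving out isoflurane mouse 18 gave 18. Shares of all tests in those fits are not given here.

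Hnrnpa2b1 was called in 6 classes here: CA1-like (0.66 ± 0.14), CA3-like (0.76 ± 0.15), DG granule-like (0.83 ± 0.12, adjusted p = 0.00347), interneuron-like (0.73 ± 0.16), astrocyte-like (1.12 ± 0.21, adjusted p = 0.00422) and oligodendrocyte-like nuclei (0.78 ± 0.18). In each of them the ketamine mice lay above all 7 isoflurane mice, as in astrocyte-like nuclei, where the isoflurane mice ran from 222 to 478 CPM and the ketamine mice had 709, 681, 650 and 718. The wake mice lay at 310 to 741 CPM there and overlapped with both, and mouse 29 was the highest of them. Hnrnpa1 differed by 1.67 ± 0.36 in astrocyte-like, 1.45 ± 0.30 in DG granule-like and 1.34 ± 0.35 in oligodendrocyte-like nuclei. Hnrnpdl, which is close in sequence to the hnRNP D proteins, differed by 1.01 ± 0.17 in astrocyte-like nuclei (92.7 to 170 CPM under isoflurane, and 280, 233, 225 and 226 with ketamine) and by 0.68 ± 0.17 in oligodendrocyte-like nuclei. These genes are on different chromosomes (Hnrnpa2b1 on 6, Hnrnpa1 on 15 and Hnrnpdl on 5).

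Hnrnpa2b1 and Hnrnpa1 were both called higher with ketamine than in wake in DG granule-like nuclei, and neither call held with the block. For these genes, 200 bases upstream of their starts are shown from the RefSeq promoter table (GRCm38.p6), 5′ to 3′ along the strand of the gene. Capitals mark TGACG, the core of a cyclic AMP response element, and the CCAAT box, which reads ATTGG where it lies on the other strand. In all 5 motifs were searched on both strands, and a full TGACGTCA also counts as TGACG.
Hnrnpa2b1, chr6:51469896-51470095, minus strand, ending 1 base before the annotated start: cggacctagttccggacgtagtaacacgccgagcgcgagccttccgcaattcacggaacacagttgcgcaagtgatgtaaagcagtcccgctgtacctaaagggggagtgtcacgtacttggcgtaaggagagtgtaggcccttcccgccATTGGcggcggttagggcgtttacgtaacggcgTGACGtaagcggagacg
Hnrnpa1, chr15:103240147-103240346, plus strand, ending 85 bases before the annotated start: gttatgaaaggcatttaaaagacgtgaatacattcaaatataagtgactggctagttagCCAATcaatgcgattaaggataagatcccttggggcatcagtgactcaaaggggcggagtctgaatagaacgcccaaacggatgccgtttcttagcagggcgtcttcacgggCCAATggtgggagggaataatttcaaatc
For Hnrnpa2b1 the table holds a second window (chr6:51469945-51470144, ending 50 bases before its start), in which 0 motifs were found. The window shown was chosen because it holds 2. The window of Rbm11, which also rose in DG granule-like nuclei with ketamine, held 0 and is not shown. CCAAT was found in 28.9% of 27025 promoters of this length and in 39.5% of the 81 promoters that belong to splicing factor genes. TGACG was found in 12.6% and 28.4%, the full element TGACGTCA in 0.862% and 1.23%, TATAAA in 9.48% and 7.41%, and the heat shock motif GAANNTTC in 5.24% and 3.70%. A match of letters is a description and says nothing of binding in these nuclei.

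Srsf10 differed between the anesthetics in CA1-like (0.95 ± 0.17), DG granule-like (0.70 ± 0.19), astrocyte-like (1.02 ± 0.21) and oligodendrocyte-like nuclei (1.20 ± 0.21). Srsf1 was higher with ketamine in astrocyte-like (0.68 ± 0.13) and DG granule-like nuclei (0.47 ± 0.13) and Srsf11 in astrocyte-like (0.53 ± 0.14) and CA3-like nuclei (0.49 ± 0.12). Sf3b3, a subunit of the U2 particle, was the only Sf3 gene called in any state comparison, in astrocyte-like (0.94 ± 0.24, from 32.1 to 52.3 CPM under isoflurane to 71.2, 84.1, 76.6 and 67.4 with ketamine) and oligodendrocyte-like nuclei (0.95 ± 0.24). Srrm2, a core SR repeat protein of the spliceosome, was the only Srrm gene called without the block (astrocyte-like, 0.72 ± 0.20). Rbm27 (1.01 ± 0.22 in oligodendrocyte-like and 0.47 ± 0.15 in astrocyte-like nuclei), Rbm26 (0.46 ± 0.14 in astrocyte-like), Hnrnpm (0.63 ± 0.15 in DG granule-like) and Rbm24 (0.79 ± 0.21 in DG granule-like nuclei) were higher as well. Rbm3 was lower in CA1-like (-1.69 ± 0.38), DG granule-like (-1.29 ± 0.32), astrocyte-like (-1.43 ± 0.37) and oligodendrocyte-like nuclei (-1.93 ± 0.40), and Hnrnpr in CA1-like (-0.43 ± 0.12) and CA3-like nuclei (-0.52 ± 0.13). For Hnrnpr the isoflurane mice (153 to 174 CPM) did not overlap with the wake mice (109 to 153) in CA1-like nuclei, while that comparison had no call. The calls that held without any 1 mouse were all in astrocyte-like nuclei: Hnrnpa1, Hnrnpa2b1, Hnrnpdl, Srsf1 and Srsf10. In these sums the oligodendrocyte markers lay at 132 to 307 CPM under isoflurane and 87.9 to 128 with ketamine, and the OPC markers had medians of 38.8 and 66.8, and their part was not tested. Of the 615 tests of the 77 other genes, 28 passed (4.55%, where 3.44% of all tests did), and with the block 0 of the 28 passed and 25 kept the sign. Of the 28, 23 were higher, among them Mbnl2 (0.68), Luc7l3 (1.06), Dhx9 (1.08) and Snrnp200 (0.80) in astrocyte-like and Srek1 (0.58) in DG granule-like nuclei, and 5 were lower, among them Tra2a (-1.13) and Elavl2 (-1.76) in astrocyte-like and Cirbp (-1.91) in CA3-like nuclei.

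**Figure D4:**
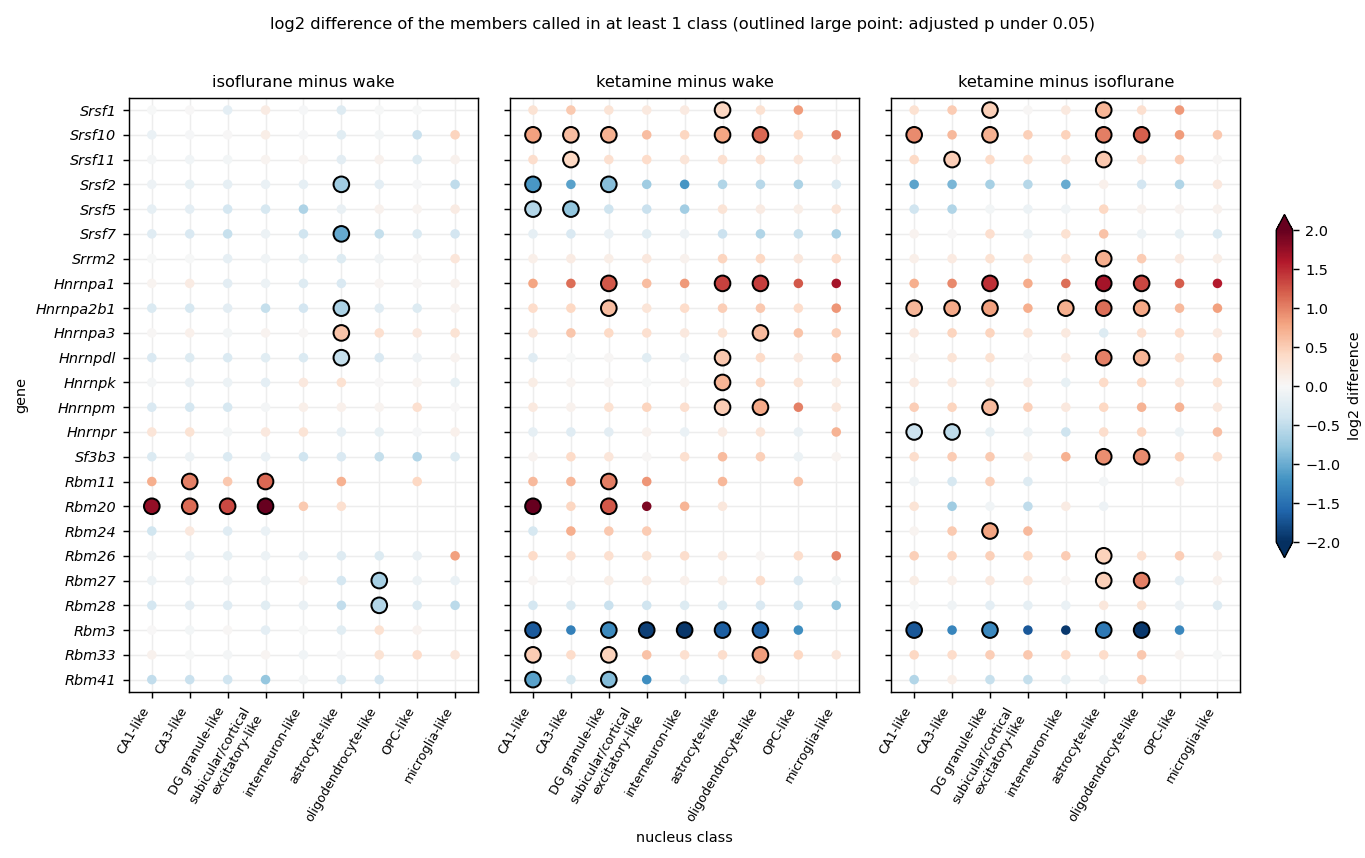
Log2 differences (colour, from -2 to 2) of the splicing factor genes called in at least 1 class (rows), in 9 nucleus classes (columns) and 3 state comparisons (panels). Large outlined points passed at an adjusted p under 0.05: 13 for isoflurane against wake, 34 for ketamine against wake and 33 for ketamine against isoflurane.

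Several genes central to the spliceosome were called in no state comparison without the block. Sf3b1, which recognises the branch point, had differences between -0.20 and 0.13 under isoflurane and between -0.18 and 0.53 with ketamine against wake over 9 classes. Rbm25 (-0.10 to 0.50) and Rbm39 (0.06 to 0.43), both SR-like cofactors, and Hnrnpu (-0.02 to 0.57) gave similar ranges with ketamine against wake. Snrpb, which encodes an Sm core protein, had differences between -0.91 and -0.09 over 8 classes with ketamine, all negative and none called (smallest adjusted p 0.29), and Srsf3 had differences between -0.59 and 0.01. Srrm4 ranged from -0.37 to 0.58 under isoflurane and from -0.25 to 0.27 with ketamine, and it passed under isoflurane in astrocyte-like nuclei with the block, as given above.

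**Figure D5:**
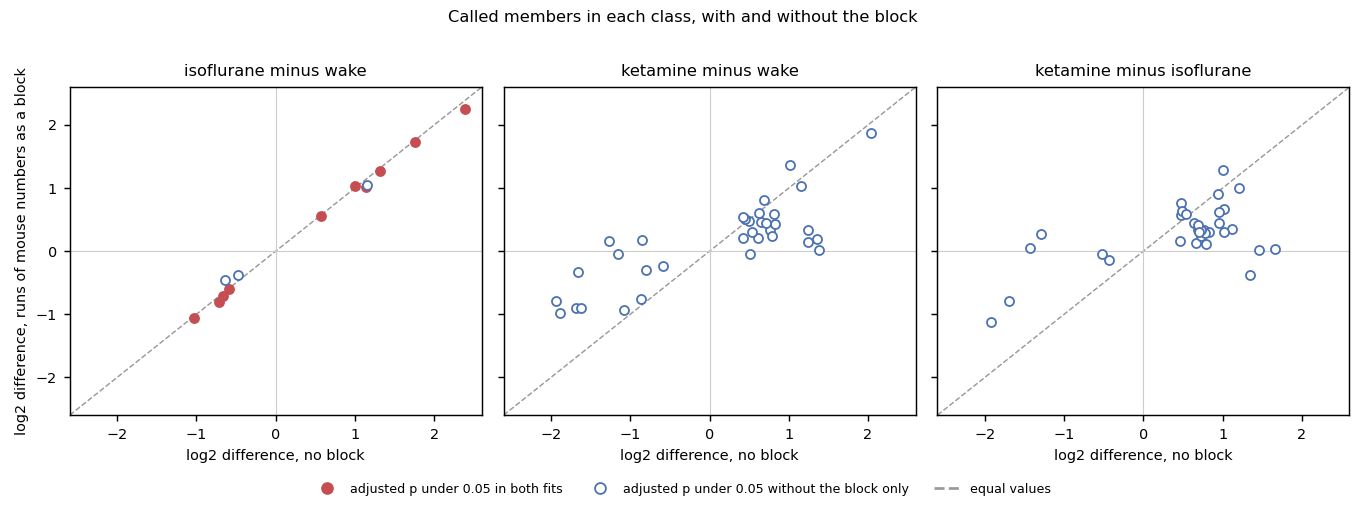
Log2 difference of each call with runs of mouse numbers as a block (vertical axis) against that without a block (horizontal axis), for 3 state comparisons; filled points pass an adjusted p of 0.05 in both fits. The isoflurane calls lie along the line of equal values and 10 of 13 are filled, whereas none of the 34 and 33 ketamine calls is filled and many lie nearer to 0 with the block.

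Between the genotypes as labelled, averaged over the 3 states, 0 of 663 tests passed (0% of all tests did). By Prnp the labels are in doubt for some mice. Labelled APP/PS1, mice 11, 17 and 20 had 63.6, 74.5 and 99.7 CPM, where the others had 186 to 433. Labelled WT, mouse 14 had 196 CPM, where the others had 42.2 to 149. The count therefore does not show that the genotypes are alike. Unadjusted p-values were under 0.05 in 24 tests, 3.62%, where 1.89% to 3.32% of all genes had one by class, and DESeq2 called 0. The genes that came first by p-value were Srsf6 in CA1-like nuclei (APP/PS1 minus WT 0.75 ± 0.21), Hnrnpa0 in astrocyte-like (0.76 ± 0.23), Sf3b1 (0.46 ± 0.15) and Srrm1 (0.55 ± 0.19) in OPC-like, and Snrpa1 in DG granule-like nuclei (0.34 ± 0.14). For Srsf6 the WT mice had 3.19, 12.4 and 18.5 CPM (lowest, median and highest) and the APP/PS1 mice 8.78, 17.3 and 22.0, so the genotypes overlapped. The ketamine mice were the furthest apart, at 20.7 and 22.0 CPM for APP/PS1 and 10.4 and 3.19 for WT.

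In the test of whether the isoflurane difference itself differed between the genotypes, 0 of 663 passed (0% of all tests). The doubt about the labels holds here as well. Unadjusted p-values were under 0.05 in 23 tests, 3.47%, where 2.18% to 3.60% of all genes had one by class, and DESeq2 called 0. Snrpn in subicular or cortical excitatory-like nuclei came first, with an APP/PS1 minus WT difference of the isoflurane differences of -1.21 ± 0.38. Its wake values were 58.0 to 99.3 CPM in WT and 78.8, 97.2 and 167 in APP/PS1, and its isoflurane values 157, 244 and 103 in WT and 98.9, 96.1, 95.5 and 101 in APP/PS1. Srsf2 in microglia-like (-1.64 ± 0.52), Rbm26 in OPC-like (0.90 ± 0.34), Rbm19 in DG granule-like (1.06 ± 0.40) and Srsf5 in oligodendrocyte-like nuclei (-0.68 ± 0.27) followed. The lowest adjusted p among these was 0.961.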

How the data were processed

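Nuclei from the hippocampus of 20 mice were analysed. The authors deposited raw UMI counts per gene and nucleus (Cell Ranger 5.0.0 per the file headers). Intronic reads were counted, so levels of different genes are not compared. The study's methods also name CellBender, which the headers do not, so removal of free RNA is not known for these counts. Labels and methods differ on perfusion and kit version. The labels give no batch.

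Nuclei with at least 200 genes were assigned to 10 classes from 68 markers by a Poisson model (posterior at least 0.8, at least 2 markers, pairs of classes modelled as mixtures with a prior of 0.1, which left 12.7% of nuclei as mixed). No other doublet caller was run. Counts were summed per mouse and class (at least 30 nuclei) and given as CPM. Levels across classes are scaled jointly, so they differ slightly from those within a class. Groups were compared in edgeR 4.0.16 (R 4.3.3) by the quasi-likelihood test with TMM, all 6 groups in 1 fit and Benjamini-Hochberg adjustment over all genes of a class at 0.05, with differences averaged over genotype or state. Alternatives included DESeq2 1.42.0, other filters, scalings and gates, and runs of mouse numbers (1 to 4, 10 to 13, 14 to 17, 18 to 20, 25 to 29) as a block. The methods state processing in batches of 4 but not which mice shared one, so these runs are not known to be the batches. On simulated data for isoflurane against wake in CA1-like nuclei (12863 genes), edgeR recovered 164 of 200 genes changed 2-fold, with 8 false calls. The changed genes were drawn above a minimum mean count and no effect of runs was simulated. The rate does not cover genes as low as Rbm20 in these nuclei, or shallower classes.

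The genes and lists were chosen with earlier results of these data known. Named were 16 fixed genes, up to 10 called genes per direction and comparison, and, where none was called, the 5 with the smallest p. Further genes shown for levels across classes were chosen after their values were seen. Each mouse is 1 sample. Intervals of single genes follow from the fits, and counting error is part of them.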

Additional observations from a re-analysis of the deposited data

Results flagged for a closer look

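In 130 groups of 4 to 6 mice (65 pairs of gene and class), 13 held 1 mouse far from the others by Dixon's test at the 95% level, which chance alone flags in about 5% of groups. Isoflurane mouse 15 (APP/PS1) was such a mouse in 5 of them: 72.2 CPM of Rbm3 in CA3-like nuclei, where the other 3 mice of its group had 24.8 to 28.1, 101 CPM of Rbm3 in interneuron-like nuclei (others 25.9 to 34.3), 109 CPM of Srsf2 in astrocyte-like nuclei (others 64.0 to 71.8), 25.6 CPM of Rbm41 in CA1-like nuclei (others 18.3 to 18.7) and 174 CPM of Hnrnpr in CA1-like nuclei (others 153 to 156). Isoflurane mouse 4 (APP/PS1) had 28.1 CPM of Rbm20 in CA3-like nuclei (others 11.2 to 12.4) and 240 CPM of Srsf11 in astrocyte-like nuclei (others 158 to 166). Isoflurane mouse 11 (APP/PS1) had 196 CPM of Hnrnpa2b1 in DG granule-like nuclei (others 164 to 167) and 115 CPM of Hnrnpa1 in oligodendrocyte-like nuclei (others 37.3 to 44.9).

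Among the WT-Wake mice, mouse 29 had 53.8 CPM of Hnrnpa1 in DG granule-like nuclei (others 17.5 to 28.9) and 128 CPM in oligodendrocyte-like nuclei (others 36.2 to 53.4). Mouse 19 had 19.3 CPM of Rbm20 in subicular or cortical excitatory-like nuclei (others 1.94 to 6.62), and mouse 13 had 263 CPM of Srsf11 in astrocyte-like nuclei (others 183 to 211).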

How the results depend on the processing

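The counts of calls for isoflurane against wake moved from 13 to 25 with runs of mouse numbers as a block, to 4 without mice 1 to 4 and to 5 with the stricter gate. For ketamine against wake they moved from 34 to 0 with the block, to 17 without mice 1 to 4 and to 13 with the stricter gate. For ketamine against isoflurane they moved from 33 to 0 with the block, to 20 with only the groups compared and to 16 with the stricter gate. The stricter gate left 8 classes for isoflurane and 6 for ketamine. Calls were also lost within classes that it kept, such as that of Rbm3 in CA1-like nuclei with ketamine against wake (adjusted p = 0.239). The causes of these moves were not tested, and most of these counts have no share of all tests beside them. Leaving out 1 mouse at a time gave 5 to 15, 3 to 44 and 6 to 36 calls in these comparisons, 0 to 0 for genotype and for its interaction with isoflurane, and 66 to 71 for neuronal against glial classes. With the block, 6 differences changed sign: for ketamine against isoflurane Hnrnpa1 in oligodendrocyte-like (-0.38), Rbm3 in DG granule-like (0.26) and Rbm3 in astrocyte-like nuclei (0.044), and for ketamine against wake Hnrnpm in astrocyte-like (-0.041), Rbm3 in DG granule-like (0.17) and Srsf2 in DG granule-like nuclei (0.18). With the stricter gate, 5 neuronal minus glial differences changed sign: Rbm25 (0.085), Rbm3 (0.045), Rbm39 (0.041), Snrpb (0.0058) and Srsf7 (0.061). Of all single values under an alternative, 1959 kept direction and call, 667 kept only the direction and 11 changed sign. The mouse numbers are unique, so the block stands for runs of consecutive numbers, which no label ties to the processing batches. Depth limits OPC-like and microglia-like nuclei most, where 49 and 39 of the genes could be tested.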

Other observations

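Among the other 77 splicing genes, 74 could be compared between neuronal and glial classes, and 30 were higher and 29 lower in neuronal nuclei (79.7% called, near the 82.9% of all genes). The neuronal regulators Rbfox3 (4.79 ± 0.07, SE, log2), Rbfox1 (4.70 ± 0.05), Celf4 (3.76 ± 0.06), Khdrbs2 (3.27 ± 0.07), Celf2 (3.14 ± 0.04) and Elavl2 (3.02 ± 0.08) had the largest differences towards neuronal nuclei. Qk, a regulator known for its role in myelinating glia (-3.12 ± 0.04), Srpk3 (-2.39 ± 0.19), Mbnl1 (-1.55 ± 0.04) and Nova1 (-1.23 ± 0.07) had the largest towards glial nuclei.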
